A study of Mus musculus with 12 samples.

Results

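The comparison set 6 A17α-MHCKO hearts against 6 A17fl/fl hearts, with treatment kept in the model, so that the genotype difference was averaged over saline and doxorubicin. It used all 12 of the 12 libraries and asked which genes differed between the genotypes whatever the mice had been injected with. A17fl/fl mice carried loxP-flanked Adam17 alleles on a C57BL/6J background. A17α-MHCKO mice were littermates that also carried a Cre transgene driven by the α-myosin heavy chain promoter, which is active in cardiomyocytes, so that endothelial cells, fibroblasts and leukocytes of the same heart kept an intact gene. Exon 2 of Adam17 was the part excised. The strain of the α-MHC-Cre line was not given in the sources used here. The study describes the A17fl/fl littermates as free of Cre. Loss of Adam17 and presence of the transgene therefore cannot be told apart in this comparison. Each genotype was split into 3 hearts after normal saline (NS) and 3 after doxorubicin (DOX), an anthracycline that damages the heart, given by intraperitoneal injection on 4 occasions 7 days apart at 5 mg/kg, 20 mg/kg in total. The mice were 8 weeks old at the first injection and the hearts were taken 4 weeks after the last.

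ADAM17 is a membrane-anchored metalloprotease that cuts the extracellular part off other membrane proteins, a step called ectodomain shedding. Its best-known substrate is the precursor of tumor necrosis factor, and it also releases both TNF receptors and several ligands of the EGF receptor. The protein leaves the endoplasmic reticulum with the help of iRhom proteins (Rhbdf1, Rhbdf2) and is activated in the Golgi by furin. A loss of the protease therefore acts first on proteins, and a change of mRNA is a secondary readout.

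Library totals ran from 15950717 to 21725076 counts, and 16101 of 53465 genes were tested. A library of the A17fl/fl + NS group, replicate 1, stood apart from the other 11. Its mean correlation with them was 0.90, against 0.95 to 0.97 for the others, and its summed level of neutrophil markers was 3266 CPM (counts scaled to a common library size), whereas the other 5 A17fl/fl libraries lay between 21.9 and 51.6 CPM and the A17α-MHCKO libraries between 25.01 and 89.9 CPM. Its summed cardiomyocyte markers were at 20375 CPM, compared with 32042 to 45332 CPM elsewhere. The 12 atrial markers ranged from 425 to 7899 CPM among A17fl/fl libraries and from 1955 to 8907 CPM among A17α-MHCKO libraries. The labels give the tissue as heart, and the study describes it as left ventricle. In such bulk tissue, fewer cells of a type and less RNA per cell cannot be told apart. Many results that rest on these libraries are given with and without them. Those given for all 12 libraries alone may also rest on them.

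Adam17 itself was lower in every A17α-MHCKO heart. Floxed hearts held 70.9, 48.7 and 43.6 CPM after NS and 48.1, 53.2 and 48.4 CPM after DOX. In the A17α-MHCKO + NS hearts it measured 35.3, 34.9 and 34.2 CPM, and in the A17α-MHCKO + DOX hearts 27.9, 36.8 and 32.2 CPM. No knockout value reached the lowest floxed value, and the highest floxed value came from the library that stood apart. The means were 52.2 ± 9.66 and 33.5 ± 3.16 CPM (SD, n = 6 each), a decrease of the mean by 35.7%. The log2 fold change was -0.64 (SE 0.12), with -0.64 after NS and -0.63 after DOX. An exact two-sided permutation test of genotype within treatment gave p = 0.005, which is the smallest value its 400 arrangements can give. Among all genes tested the edgeR adjusted p was 0.446 (unadjusted p = 0.000294), so Adam17 did not pass the threshold of 0.05. Over the alternatives this adjusted p ranged from 0.00887 with DESeq2 to 0.974. It was -0.52 on the log2 scale without A17fl/fl + NS replicate 1.

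The excised exon is shown because a gene count can register a transcript that lacks it. In GENCODE M21 it lies at chr12:21361659-21361791 (GRCm38, minus strand) and is the second of 19 exons of the main coding transcript, coding throughout.
Adam17 exon 2: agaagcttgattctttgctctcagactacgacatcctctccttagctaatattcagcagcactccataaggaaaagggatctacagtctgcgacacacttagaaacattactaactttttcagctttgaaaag
Its 133 bases leave a remainder of 1 after division by 3, so a transcript that joins exon 1 to exon 3 changes reading frame. The annotation holds 10 transcripts of the gene, 6 with this exon and 1 that spans the place but lacks it, and the last is classed as a target of nonsense-mediated decay. A count over the whole gene includes reads from the remaining exons, whether or not exon 2 is present. The study's RT-PCR for the gene read a stretch away from exon 2, and its primers are shown for that reason. By RT-PCR the study reported a larger fall of Adam17 mRNA in A17α-MHCKO hearts than the gene counts gave here. The cause of this gap was not tested. The forward primer lies in exon 16 and the reverse primer across the junction of exons 16 and 17.
Forward primer: aggacgtaattgagcgattttgg
Reverse primer: tgttatctgccagaaacttccc
Adam17 also overlaps Iah1 on the opposite strand. The library kit keeps strand, but the strand setting of the counting was not given in the sources used here.

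The genes that passed the threshold lay elsewhere. At an adjusted p under 0.05 (edgeR quasi-likelihood test, Benjamini-Hochberg adjustment), 4 of 16101 genes were called, 0.0248% of those tested, with 3 higher and 1 lower in A17α-MHCKO hearts. All of them were on chromosome 7. They were Pold3, P4ha3, Pgm2l1 and Trim34b.

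Pold3 encodes an accessory subunit of DNA polymerase delta, the polymerase of the lagging strand. Its level was 12.8, 8.26 and 10.02 CPM in A17fl/fl + NS hearts and 9.87, 9.66 and 8.83 CPM in A17fl/fl + DOX hearts. In A17α-MHCKO + NS hearts it was 113, 155 and 149 CPM, and in A17α-MHCKO + DOX hearts 137, 136 and 81.6 CPM. The genotypes were far from overlapping, and the lowest knockout library was the third of the DOX group. The mean rose from 9.90 ± 1.55 to 129 ± 27.1 CPM (SD, n = 6 each), a ratio of 13.0. Its log2 fold change of 3.69 (SE 0.17) had an adjusted p of 2.7e-06. It was 3.75 after NS and 3.64 after DOX, and the gene stayed past the threshold in all 21 alternatives.

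P4ha3 encodes an alpha subunit of prolyl 4-hydroxylase, the enzyme that hydroxylates collagen prolines. It measured 5.25, 0.359 and 0.0626 CPM in A17fl/fl + NS hearts and 0.629, 0.800 and 0.435 CPM in A17fl/fl + DOX hearts. The A17α-MHCKO + NS hearts held 90.1, 106 and 170 CPM and the A17α-MHCKO + DOX hearts 79.1, 124 and 114 CPM. The raw counts behind the floxed values were 91 in A17fl/fl + NS replicate 1 and 1 to 13 in the other 5 libraries, against 1256 to 2926 in the knockout libraries. On the log2 scale the difference was 6.69 (SE 0.67, adjusted p = 0.00456). It was 8.25 without A17fl/fl + NS replicate 1. Only without A17fl/fl + DOX replicate 3, among 20 alternatives that gave a value, did its adjusted p pass above 0.05, to 0.0705. On the deposited FPKM scale, which allows levels of different genes to be compared per length, P4ha3 averaged 0.263 in floxed and 23.3 in knockout hearts, and Pold3 averaged 1.31 and 17.2. In floxed hearts Pold3 thus had the higher mean level of the pair per length, and in knockout hearts P4ha3 did.

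Pgm2l1 encodes glucose 1,6-bisphosphate synthase and was the only called gene that fell. It measured 16.5, 12.5 and 14.3 CPM in A17fl/fl + NS hearts and 6.29, 10.7 and 8.95 CPM in A17fl/fl + DOX hearts. In the knockout it was at 4.63, 4.02 and 4.53 CPM after NS and at 4.85, 5.20 and 5.10 CPM after DOX. All 6 knockout values were under all 6 floxed values and varied little, with an SD of 0.431 CPM against 3.69 CPM in floxed hearts. The log2 fold change was -1.25 (SE 0.15, adjusted p = 0.0146). It was -1.72 after NS and -0.78 after DOX, and the difference between these had an unadjusted p of 0.00723 and an adjusted p of 0.828. Its adjusted p stayed under 0.05 in 11 of 21 alternatives, with a highest value of 0.111.

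Trim34b belongs to the tripartite motif family, many of whose members respond to interferon. Its raw counts were 5 to 9 in the floxed libraries and 19 to 45 in the knockout libraries, so that it rested on few reads. The level was 0.346, 0.359 and 0.313 CPM in A17fl/fl + NS hearts and 0.314, 0.554 and 0.497 CPM in A17fl/fl + DOX hearts, compared with 1.79, 1.94 and 1.63 CPM in A17α-MHCKO + NS hearts and 1.196, 1.24 and 2.49 CPM in A17α-MHCKO + DOX hearts. The log2 fold change was 2.10 (SE 0.28, adjusted p = 0.0358), and the call held in 7 of 20 alternatives. Trim34b has close relatives beside it on the chromosome, and reads shared between such copies make the count of each uncertain.

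**Figure D1:**
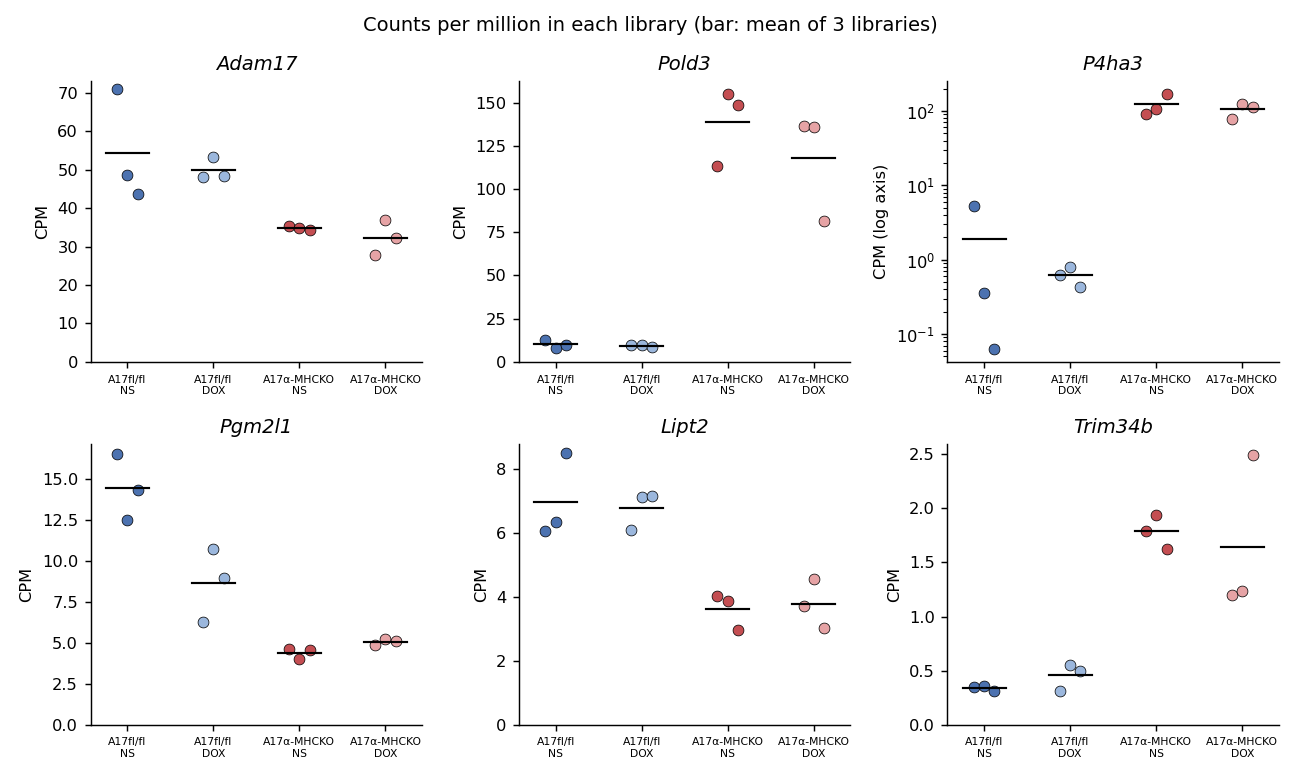
Each panel plots CPM (y axis) of 1 gene in the 12 libraries, by genotype and treatment (x axis). Points are libraries and bars are means of 3; the P4ha3 axis is logarithmic. In each of the 6 panels the A17α-MHCKO libraries lie wholly on one side of the A17fl/fl libraries; the Pold3 values are 81.6 to 155 CPM against 8.26 to 12.8 CPM.

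Of the called genes 3 are neighbours. In GENCODE M21 (GRCm38), whose gene identifiers were used to place the deposited genes, Pold3 lies at chr7:100082111-100121565 on the minus strand, Pgm2l1 at chr7:100227394-100278868 on the plus strand and P4ha3 at chr7:100285520-100319699 on the plus strand. Only 6.65 kb separate the end of Pgm2l1 from the start of P4ha3, and between this pair the direction turned over, with Pgm2l1 lower and P4ha3 higher. The promoter sequences of these 3 genes are printed because they hold the starts of the neighbouring genes that changed. They come from RefSeq (GRCm38.p6), run 5′ to 3′ on the strand of the gene from 250 bases before to 50 bases after the start, and carry in capitals each match to the GC box GGGCGG on either strand.
Pold3, chr7:100121453-100121752, minus strand: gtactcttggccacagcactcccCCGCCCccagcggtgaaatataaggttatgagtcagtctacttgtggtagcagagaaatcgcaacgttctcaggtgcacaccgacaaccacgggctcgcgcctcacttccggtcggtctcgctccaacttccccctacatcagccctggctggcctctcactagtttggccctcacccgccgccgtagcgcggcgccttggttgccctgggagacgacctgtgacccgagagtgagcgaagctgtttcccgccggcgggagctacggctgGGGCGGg
P4ha3, chr7:100285270-100285569, plus strand: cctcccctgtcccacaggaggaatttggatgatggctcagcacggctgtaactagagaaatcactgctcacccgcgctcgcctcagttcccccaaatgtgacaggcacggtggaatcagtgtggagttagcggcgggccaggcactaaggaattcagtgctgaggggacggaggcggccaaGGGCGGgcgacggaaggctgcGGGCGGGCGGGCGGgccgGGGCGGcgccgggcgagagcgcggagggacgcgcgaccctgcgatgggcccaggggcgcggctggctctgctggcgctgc
Pgm2l1, chr7:100227357-100227656, plus strand: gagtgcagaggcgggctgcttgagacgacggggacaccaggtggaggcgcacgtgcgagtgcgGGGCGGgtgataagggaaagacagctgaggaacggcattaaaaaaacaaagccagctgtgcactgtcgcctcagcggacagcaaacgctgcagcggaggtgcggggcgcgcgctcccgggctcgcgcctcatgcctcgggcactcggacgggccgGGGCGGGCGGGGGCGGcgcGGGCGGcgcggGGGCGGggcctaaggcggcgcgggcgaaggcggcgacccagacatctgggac
GC boxes numbered 2 in the Pold3 promoter, 5 in P4ha3 and 6 in Pgm2l1, with overlapping boxes in P4ha3 and Pgm2l1, and 35.7% of 32851 promoters of this length held at least 1. None of the 3 held CCAAT or TATAAA on either strand, which were present in 37.4% and 13.6% of promoters. Their G and C content was 63.3%, 69.3% and 72%, above the median of 52.7% over all promoters. The Trim34b promoter had 43.3% G and C and no match to any of the 3 motifs.

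Many genes around Pold3 had a small p. Within 1 Mb of its start 11 of 38 tested genes had an unadjusted p under 0.05, a share of 28.9%, compared with 6.65% of all genes tested. The window was centred on the gene with the smallest p, and 3 of its genes are those called. Leaving these out, 8 of 35 genes remained, 22.9%. From 1 to 5 Mb the share was 15.5% (11 of 71 genes), from 5 to 10 Mb 5.71% (4 of 70), farther along chromosome 7 7.81% (84 of 1075) and on the other chromosomes 6.47% (960 of 14847). Without A17fl/fl + NS replicate 1, 15 of 38 genes in the window had an unadjusted p under 0.05, and without A17fl/fl + NS replicate 2 it was 12 of 39. The shares over all genes in these refits are not given. Around Adam17 on chromosome 12 there was 1 such gene within 1 Mb, of 8 tested, and that was Adam17.

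A stricter look at the same region asked for all 3 knockout libraries to lie beyond all 3 floxed libraries in NS and in DOX, in the same direction. Across all genes 151 did so, 0.938% of those tested. In the 1 Mb around Pold3 8 of 38 genes did. These were the 3 called genes and Lipt2, Ppme1, Coa4, Rab6a and Gm35082. With all 6 knockout libraries beyond all 6 floxed libraries there were 54 genes, 0.335% of those tested, 12 of them on chromosome 7. That chromosome held 1254 of the 16101 genes tested.

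Gm35082, a predicted gene 554 kb from Pold3, had reads in the knockout libraries alone. It had 0 counts in each of the 6 floxed libraries and 30, 18 and 13 counts in the A17α-MHCKO + NS libraries and 10, 10 and 9 counts in the A17α-MHCKO + DOX libraries. Set against a floor of 3 counts over the whole floxed group, its summed level was at least 28.6-fold higher in the knockout. Its adjusted p was 0.0783 and it was called in 5 of 20 alternatives.

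Lipt2, which starts 37.7 kb from Pold3 and encodes the octanoyl transferase of lipoic acid synthesis, was lower in each knockout heart. It measured 6.06, 6.34 and 8.52 CPM in A17fl/fl + NS, 6.10, 7.14 and 7.15 CPM in A17fl/fl + DOX, 4.01, 3.89 and 2.96 CPM in A17α-MHCKO + NS and 3.71, 4.55 and 3.04 CPM in A17α-MHCKO + DOX hearts. This was a log2 fold change of -0.90 (SE 0.16, adjusted p = 0.279). Ppme1, the methylesterase of protein phosphatase 2A, had a log2 fold change of -0.39 (SE 0.10, unadjusted p = 0.00265). Rab6a, a GTPase of Golgi traffic, had -0.30 (SE 0.09) and Coa4, an assembly factor of cytochrome c oxidase, 0.32 (SE 0.10). The remaining neighbours with an unadjusted p under 0.05 were Gm45012 (-1.21), Map6 (-0.40) and Slco2b1 (-0.37). Apart from Gm35082, whose fitted value is no bound, the differences of the neighbours that were not called ran from -1.21 to 0.32, and 6 of these 7 were below 0.

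**Figure D2:**
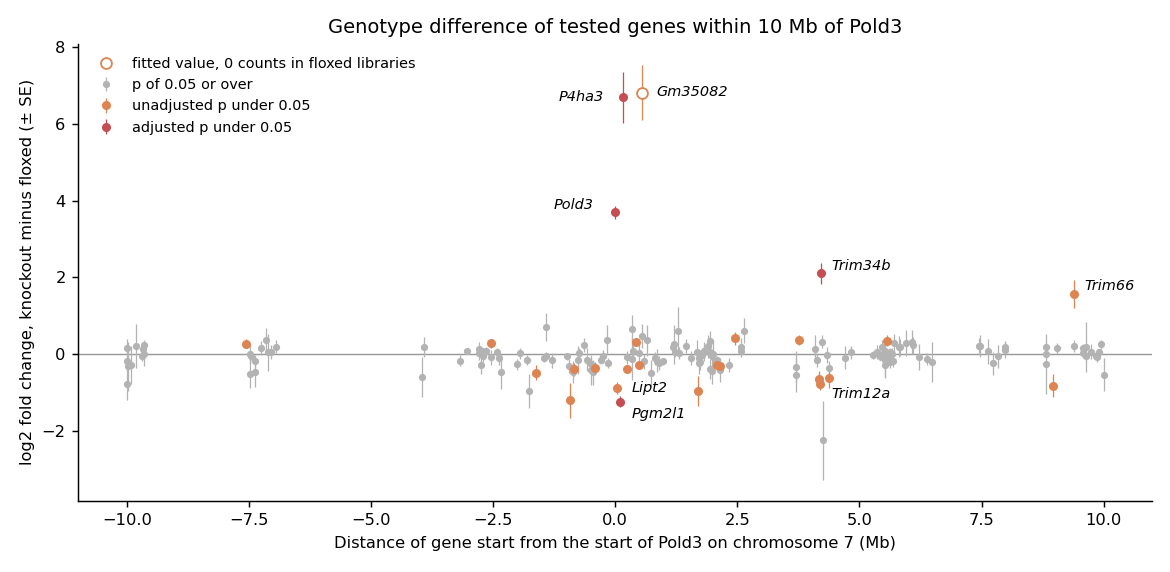
Log2 fold change, A17α-MHCKO minus A17fl/fl (y axis, with SE), of the tested genes against the distance of their start from that of Pold3 along chromosome 7 in Mb (x axis). Pold3 (3.69) and P4ha3 (6.69) stand near 0, and Trim34b (2.10) at 4.21 Mb; the open point is a fitted value of a gene with 0 counts in floxed libraries.

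A second group on the same chromosome was the Trim cluster, 4.21 Mb from Pold3. Beside Trim34b, Trim12a had a log2 fold change of -0.77 (SE 0.18, unadjusted p = 0.00102, adjusted p = 0.686), Trim5 one of -0.65 (SE 0.20) and Trim30d one of -0.64 (SE 0.24). Trim12a measured 10.7, 9.87 and 15.4 CPM in A17fl/fl + NS, 14.5, 13.8 and 14.0 CPM in A17fl/fl + DOX, 9.26, 9.03 and 8.43 CPM in A17α-MHCKO + NS and 4.85, 5.26 and 9.35 CPM in A17α-MHCKO + DOX hearts. Its genotypes did not overlap. Farther on, Trim66 had 1.56 (SE 0.37, adjusted p = 0.703) at 9.39 Mb. Its level was low and its genotypes overlapped, with 0.173 to 0.314 CPM in floxed and 0.304 to 0.818 CPM in knockout libraries. Over the whole list of TRIM5, TRIM30 and TRIM34 family genes, 3 of 13 tested members had an unadjusted p under 0.05 and were higher and 3 were lower, beside 2.76% higher and 3.89% lower of all genes. The close relatives in this cluster share sequence, and their counts are uncertain for the reason given above. Between 1 and 5 Mb from Pold3, 4 genes lay higher in the knockout at an unadjusted p under 0.05 and 7 lower. The higher ones were Trim34b, Trim21 (0.41), Aamdc (0.28) and the pseudogene Dnajc19-ps (0.37), of which Aamdc was named after its value was seen.

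The genotype difference was also read after NS and after DOX alone, since an average describes both only where they are alike. In the separate contrasts, 3 genes passed an adjusted p of 0.05 after NS and 1 after DOX. The test of whether the genotype difference depended on treatment called 0 genes (edgeR, smallest adjusted p 0.524), with 965 genes, 5.99%, at an unadjusted p under 0.05. By the likelihood ratio test of edgeR it called 11 genes and by DESeq2 19. Across genes, which are not independent replicates, the fitted NS and DOX differences had a Pearson correlation of 0.0224, and 50.2% of genes had the same sign. On mean log2 CPM values the correlation was -0.0495, and 0.0237 without A17fl/fl + NS replicate 1. The NS and DOX differences share no library. Of 16101 genes tested, 1633 had an unadjusted p under 0.05 after NS, 435 after DOX and 46 in both. Whether 46 exceeds the overlap that such counts give by chance was not tested. Of these 46 genes, 27 had the same sign, 8 of them on chromosome 7, and 19 the opposite sign. Chromosome 7 held 1254 of the genes tested.

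**Figure D3:**
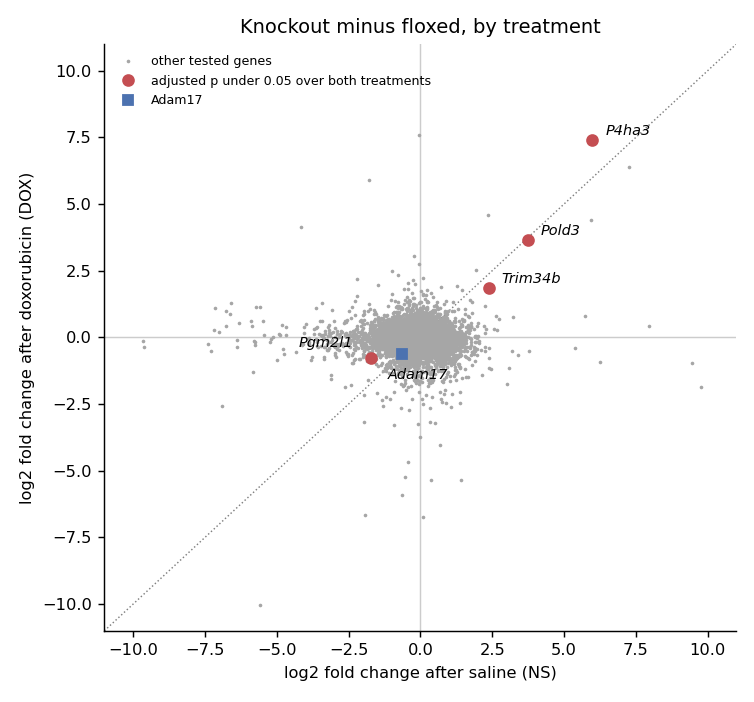
Each point is a tested gene, placed by its log2 fold change (A17α-MHCKO minus A17fl/fl) after saline (x axis) and after doxorubicin (y axis); the dotted line marks equality. The called genes P4ha3, Pold3, Trim34b and Pgm2l1 stand away from the origin in the same direction on both axes, while the cloud shows no slope (Pearson correlation 0.0224).

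By the limits the study used, an unadjusted p under 0.05, a change of over 1 on the log2 scale and a mean FPKM over 1 in either genotype, 125 genes passed, 0.776% of those tested, with 22 higher and 103 lower in the knockout. The library that stood apart, A17fl/fl + NS replicate 1, held the highest of the 12 values for 84 of these 103. Without it 51 genes passed, 28 higher and 23 lower, and 36 of them were among the 125. Only 8 of the 125 genes were apart in both treatments by the rule above. Pold3, P4ha3 and Gm35082 were among these 8, as were Gm47308, Igsf23, Sprr1a, Ramp1 and Slc2a1, named after their values were seen. Pgm2l1 and Trim34b were not among the 125, since their mean FPKM was under 1 in both genotypes.

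Among ADAM17 and its maturation partners, 2 of 9 genes had an unadjusted p under 0.05, Adam17 and Furin, and both were lower, beside 3.89% of all genes. Furin measured 254, 153 and 145 CPM in A17fl/fl + NS, 130.3, 132 and 130.5 CPM in A17fl/fl + DOX, 107, 104 and 129.7 CPM in A17α-MHCKO + NS and 70.6, 122 and 111 CPM in A17α-MHCKO + DOX hearts. The groups met closely, with the highest knockout value just under the lowest floxed value. The log2 fold change was -0.53 (SE 0.17, adjusted p = 0.736), and -0.38 without A17fl/fl + NS replicate 1. Furin lies on chromosome 7 as well. Rhbdf2, the iRhom of leukocytes, had -0.38 (SE 0.20) and Pacs2, a sorting protein, -0.19 (SE 0.10). Without A17fl/fl + NS replicate 1 they were at -0.14 and -0.11.

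Of the ADAM17 substrates 34 were tested, and 4 (11.8%) had an unadjusted p under 0.05, all lower, beside 3.89% of all genes: the chemokine Cx3cl1 (-0.49, SE 0.15), the lipoprotein receptor Lrp1 (-0.43, SE 0.14), the EGF receptor ligand Hbegf (-0.45, SE 0.17) and the TNF receptor Tnfrsf1b (-0.97, SE 0.44). Cx3cl1 lay between 12.1 and 24.5 CPM in floxed hearts and between 11.4 and 12.7 CPM in knockout hearts. Tnfrsf1b was at 157 CPM in A17fl/fl + NS replicate 1 and at 15.9 to 28.1 CPM in the other 11 libraries, and its log2 fold change was -0.17 without that library. Cx3cl1, Lrp1 and Hbegf were at -0.36, -0.35 and -0.31 in the same refit. The median over the substrates was -0.32, beside -0.01 over all genes tested, and -0.07 without A17fl/fl + NS replicate 1. With all 12 libraries it was -0.39 after NS and -0.07 after DOX. Without A17fl/fl + NS replicate 2, 13 substrates were lower and 2 higher at an unadjusted p under 0.05. The share over all genes in that refit is not given, so these counts cannot be weighed against 3.89%. Of 11 EGF receptors and ligands 1 had an unadjusted p under 0.05. Nrg1, a cardiac growth factor made by endothelium, had 0.84 (SE 0.42), Nrg2 0.35 (SE 0.21) and the receptor Egfr -0.17 (SE 0.21).

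Tnf did not pass the filter on low counts. Its count was 1194 in the first A17fl/fl + NS heart, while the remaining 11 hearts had counts from 1 to 10. In the chain from the TNF receptors to the MAP kinases 2 of 53 genes (3.77%) had an unadjusted p under 0.05, both lower, a share near the 3.89% of all genes, and the median was -0.10. They were Tnfrsf1b and the inhibitor Tnfaip3 (-1.40), whose log2 fold change was -0.09 without A17fl/fl + NS replicate 1. Traf3, an adaptor below TNF family receptors, had a log2 fold change of -0.20 (SE 0.20, adjusted p = 0.856). It measured 12.1, 10.6 and 9.65 CPM in A17fl/fl + NS, 25.1, 20.7 and 22.3 CPM in A17fl/fl + DOX, 19.1, 13.8 and 8.31 CPM in A17α-MHCKO + NS and 13.2, 9.68 and 17.9 CPM in A17α-MHCKO + DOX hearts. The genotypes overlapped after NS, and after DOX the 3 knockout values were the lower ones. The difference was 0.35 after NS and -0.74 after DOX (unadjusted p of the interaction 0.0198, adjusted p = 0.828). Cebpb, a transcription factor, had -0.46 (SE 0.25, adjusted p = 0.752). The Cebpb difference was -1.26 after NS and 0.34 after DOX (unadjusted p of the interaction 0.00908, adjusted p = 0.828). It was -0.14 without A17fl/fl + NS replicate 1, whose 427 CPM was the highest value of the gene. Map3k7, the kinase TAK1, had -0.0033 (SE 0.16), Mapk8, the kinase JNK1, 0.09 (SE 0.08) and Mapk14, the kinase p38α, -0.0087 (SE 0.32).

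Nuclear-encoded subunits of the respiratory chain carry electrons to oxygen and make ATP in the mitochondria that fill cardiomyocytes. Of 84 such genes tested, 20 had an unadjusted p under 0.05 and all 20 were higher, beside 2.76% of all genes, though none passed adjustment over all genes. The median log2 fold change was 0.17, with 0.20 after NS and 0.19 after DOX, and 75 of 84 were above 0. By the rule of separation in both treatments 11 of 84 were apart. The leading members belonged to cytochrome c oxidase and ATP synthase: Cox6c2 (0.57, SE 0.15), Atp5mpl (0.45, SE 0.12), Cox7b (0.41, SE 0.12) and Cox8b (0.64, SE 0.19). Cox7b measured 409, 421 and 404 CPM in A17fl/fl + NS, 484, 509 and 448 CPM in A17fl/fl + DOX, 568, 489 and 554 CPM in A17α-MHCKO + NS and 823, 546 and 569 CPM in A17α-MHCKO + DOX hearts. Knockout values were higher within each treatment, and the highest came from A17α-MHCKO + DOX replicate 1. Without that library 16 members were higher at an unadjusted p under 0.05 and the median was 0.09. These were 18 members and 0.16 without A17fl/fl + NS replicate 1.

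Gene length moved with this result. In A17α-MHCKO + DOX replicate 1 the shortest 10% of tested genes, by the length that the deposited counts and FPKM imply, had a median of 0.39 above their 12-library mean on the log2 scale, and the longest 10% a median of -0.22. In the other 5 knockout libraries the shortest 10% lay between -0.06 and 0.04. Averaged over treatments the genotype difference of the shortest 10% had a median of 0.10 and of the longest 10% -0.06, and without that library the medians were 0.03 and -0.03. Without A17fl/fl + NS replicate 1 they were 0.17 and -0.10. The A17fl/fl + NS libraries also departed for the shortest 10%, with 0.18, -0.15 and -0.21. Respiratory chain genes had a median implied length of 2.36 kb. This lies outside the shortest 10%, in the bin from the 10th to the 25th percentile (1.29 to 2.86 kb). In A17α-MHCKO + DOX replicate 1 that bin had a median of 0.16 above its 12-library mean. Its median genotype difference was 0.03, and -0.004 without that library. The part of length in their difference was not tested. The 13 mitochondrially encoded protein genes had 0 members at an unadjusted p under 0.05 and a median of -0.06, and the 10 cardiomyocyte markers had 0 members and a median of 0.02.

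Interferon-stimulated genes encode antiviral proteins and are switched on by the ISGF3 complex. Of 40 tested, 11 had an unadjusted p under 0.05 and were higher and 1, Trim30d of the chromosome 7 cluster, was lower, beside 2.76% higher and 3.89% lower of all genes. None passed adjustment. The median was 0.40, with 0.77 after NS and 0.03 after DOX. The leading members were the antiviral GTPase Mx2 (1.36, SE 0.33), the signaling factor Irf9 (0.51, SE 0.13), Ifit1 (0.82, SE 0.23), which binds viral RNA, and Ifi35 (0.36, SE 0.11). Irf9 measured 36.7, 26.0 and 28.5 CPM in A17fl/fl + NS, 36.2, 48.6 and 38.0 CPM in A17fl/fl + DOX, 65.6, 53.1 and 56.3 CPM in A17α-MHCKO + NS and 39.3, 37.9 and 51.9 CPM in A17α-MHCKO + DOX hearts. After NS the genotypes were apart, and after DOX they overlapped. The interaction of Irf9 had an unadjusted p of 0.0059 and an adjusted p of 0.828. As a list, the median member in the A17α-MHCKO + NS hearts stood at 0.41, 0.35 and 0.26 above its 12-library mean on the log2 scale, and in the A17fl/fl + NS hearts at -0.06, -0.83 and -0.35. Without A17fl/fl + NS replicate 1, 21 members were higher and the median was 0.55, without A17fl/fl + NS replicate 2 it was 9 and 0.30, and without A17α-MHCKO + DOX replicate 1 it was 15 and 0.50. The shares of 2.76% and 3.89% hold for the fit of all 12 libraries, and the shares over all genes in these refits are not given.

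Immediate-early genes, which encode transcription factors and other products induced within minutes by stress or growth signals, were the list with the lowest median among the 20 pathway lists. Of 25 tested, 8 had an unadjusted p under 0.05 and all 8 were lower, beside 3.89% of all genes. None passed adjustment. The median was -0.65, with -1.03 after NS and -0.02 after DOX, but only -0.09 without A17fl/fl + NS replicate 1, when 5 members were lower at an unadjusted p under 0.05. The share over all genes in that refit is not given. With all 12 libraries Arc, an activity-regulated gene, had the smallest p of the list. It measured 10.7, 4.13 and 5.83 CPM in A17fl/fl + NS, 2.83, 1.54 and 1.802 CPM in A17fl/fl + DOX, 0.926, 1.47 and 1.05 CPM in A17α-MHCKO + NS and 1.57, 1.69 and 0.729 CPM in A17α-MHCKO + DOX hearts. Its log2 fold change was -1.60 (SE 0.31, adjusted p = 0.446), and -1.36 without A17fl/fl + NS replicate 1. Fosb had -1.02 (SE 0.36), Atf3 -1.10 (SE 0.39) and Fosl2 -0.75 (SE 0.27). Neutrophil marker levels moved with this list, as 5 of 10 tested markers were lower at an unadjusted p under 0.05 and their median went from -2.48 to 0.05 without A17fl/fl + NS replicate 1. Their part in the result was not tested.

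Oxidative stress genes encode enzymes that detoxify reactive oxygen and their products. Of 37 tested, 8 had an unadjusted p under 0.05, all lower, beside 3.89% of all genes, with a median of -0.15. The median was -0.52 after NS and 0.17 after DOX, so the average describes neither treatment. Heme oxygenase 1 (Hmox1) was at 370, 20.4 and 70.2 CPM in A17fl/fl + NS hearts and at 12.2 to 20.5 CPM in the other 9 libraries, with a log2 fold change of -1.61 (SE 0.52) and of -0.73 without A17fl/fl + NS replicate 1. Gsta1 and Gsta3, glutathione S-transferases, had -1.57 (SE 0.44) and -0.66 (SE 0.25), and Gclc, the catalytic subunit of glutathione synthesis, -0.30 (SE 0.10). After NS the differences of Hmox1, Gsta1, Gsta3 and Gclc were -3.34, -2.60, -1.44 and -0.49. After DOX they were 0.12, -0.54, 0.11 and -0.11. Without A17fl/fl + NS replicate 1, 6 members were lower, 2 were higher and the median was 0.02. When A17fl/fl + NS replicate 2 was left out instead, 12 were lower. Shares over all genes in these refits are not given.

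**Figure D4:**
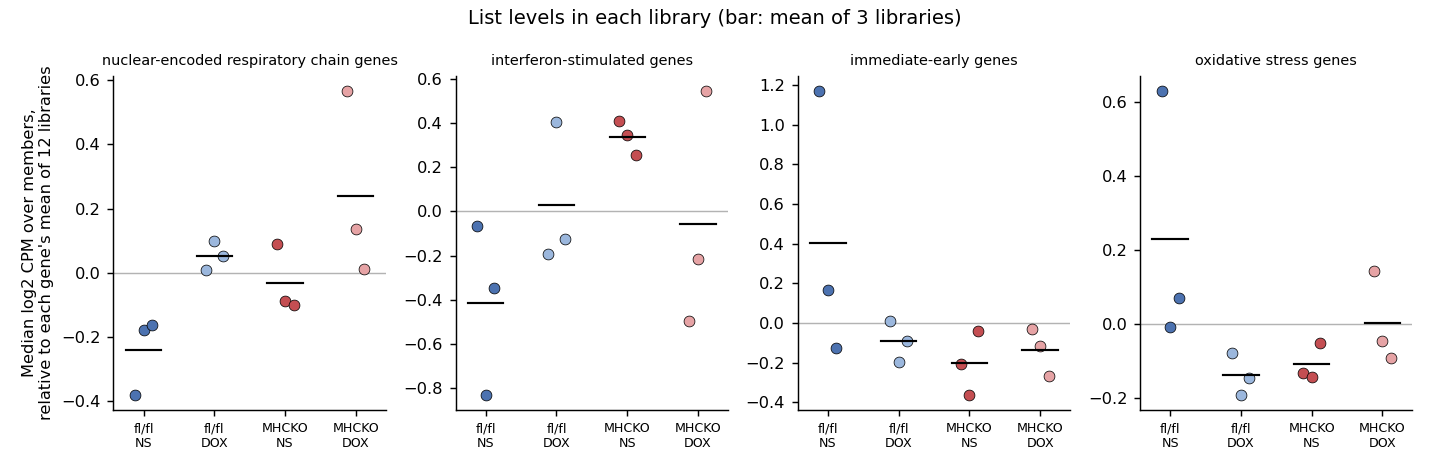
Median log2 CPM over the members of 4 lists in each library, relative to each gene's mean over 12 libraries (y axis), by genotype and treatment (x axis); bars are means of 3 libraries. Respiratory chain genes are lowest in A17fl/fl + NS and reach 0.57 in 1 A17α-MHCKO + DOX library; the immediate-early list has 1 A17fl/fl + NS library at 1.17.

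The remaining lists are read beside the same shares over all genes, 2.76% higher and 3.89% lower. In collagen and matrix genes 5 of 32 had an unadjusted p under 0.05, all lower, led by the metalloprotease inhibitor Timp1 (-2.97, SE 1.04), Tnc (-3.03, SE 1.11), Ltbp2 (-1.09, SE 0.42) and the crosslinking enzyme Lox (-1.84, SE 0.80). Timp1 was at 734 CPM in A17fl/fl + NS replicate 1 and at 2.90 to 10.2 CPM elsewhere. Without that library 0 members were lower and 1 higher, and Lox turned to 0.20. Timp1, Tnc and Ltbp2 were then at -0.14, -0.09 and -0.69. Of 33 genes of DNA polymerases delta and epsilon and the replication fork, Pold3 alone had an unadjusted p under 0.05, and the median of the list was -0.06. Sarcomere genes had 1 of 25 higher and 3 lower, among them Myot (-0.89, SE 0.25) and Flnc (-0.36, SE 0.12). Myot was at -1.82 after NS and 0.04 after DOX (unadjusted p of the interaction 0.00311, adjusted p = 0.828). Its average thus describes neither treatment. Flnc was at -0.33 after NS and -0.39 after DOX. Cardiac stress genes had 1 of 14 higher, Csrp3 (0.35, SE 0.15), and 2 lower, Xirp2 (-0.39, SE 0.15) and Mybpc2 (-0.40, SE 0.16). Xirp2 was at -0.77 after NS and -0.02 after DOX (unadjusted p of the interaction 0.0284, adjusted p = 0.828). Csrp3 was at 0.34 and 0.36, and Mybpc2 at -0.58 and -0.23. Of p53 targets 2 of 24 were lower, Zmat3 (-0.38, SE 0.14) and Sesn2 (-0.79, SE 0.33). Without A17fl/fl + NS replicate 1 these genes were at -0.26 and -0.28. Circadian clock genes had 1 of 18 higher and 2 lower, fatty acid oxidation genes 1 of 34 lower, unfolded protein and heat shock genes 2 of 26 lower and calcium handling genes 0 of 17. Without A17fl/fl + NS replicate 1, members lower at an unadjusted p under 0.05 numbered 6 of 18 for the circadian clock (median -0.26), 5 of 25 for the sarcomere, 4 of 17 for calcium handling, 3 of 34 for fatty acid oxidation and 4 of 26 for heat shock, with 0 higher in each of these lists. The shares of 2.76% and 3.89% hold for the fit of all 12 libraries, and those of that refit are not given. Hspa1a and Hspa1b, the lower pair of the heat shock list, are near-identical copies and their separate counts are uncertain.

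**Figure D5:**
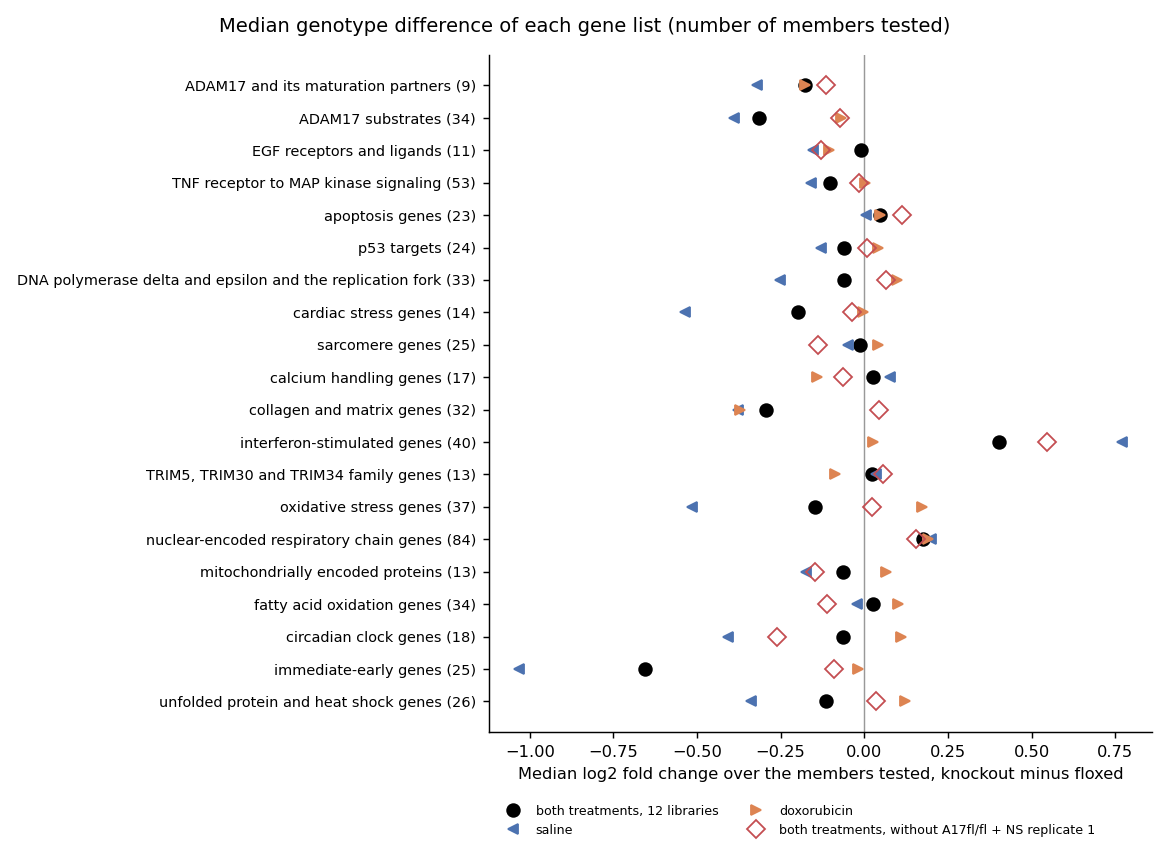
Median log2 fold change, A17α-MHCKO minus A17fl/fl (x axis), over the tested members of each of 20 lists (y axis), for both treatments, each treatment alone, and both without A17fl/fl + NS replicate 1. The respiratory chain list has nearly equal medians after saline (0.20) and doxorubicin (0.19), and the immediate-early median goes from -0.65 to -0.09 without that library. Without A17α-MHCKO + DOX replicate 1, not drawn here, the respiratory chain median over both treatments was 0.09.

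Markers of other cells were looked at in the same fit, where 2.76% of all genes were higher and 3.89% lower at an unadjusted p under 0.05. In lists this short, 1 marker past that limit is no result about a cell type. Endothelium had 1 of 10 markers higher, T and NK cells 1 of 14 higher, macrophages 1 of 12 higher and 1 lower and skeletal muscle 1 of 8 higher, all at an unadjusted p under 0.05. No marker of fibroblasts (10 tested), smooth muscle and pericytes (10), atrium (12), ventricle (7), adipocytes (11), mesothelium (10), Schwann cells (9), B cells (3) or red cells (5) reached it. Without A17fl/fl + NS replicate 2, which had the highest atrial level of the floxed group, 8 of 12 atrial, 7 of 10 mesothelial and 6 of 11 adipocyte markers were higher in the knockout at an unadjusted p under 0.05. The share over all genes in that refit is not given.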

How the data were processed

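Heart mRNA, from left ventricle by the study's description, was sequenced from 12 mice. Counts per gene and FPKM values were deposited by the authors in 1 table. The submitters' processing notes name CASAVA 1.8, HISAT2, SAMtools 1.3.1, edgeR and GRCm39, without their roles. Positions here are GRCm38 (GENCODE M21), matched by gene identifier for 53360 of 53465 genes, and 26 symbols that had turned into dates were restored. Libraries held 15950717 to 21725076 counts. Where nothing else is said, CPM used TMM scaling and differences came from the quasi-likelihood test of edgeR 4.0.16 (R 4.3.3) after filterByExpr, with a mean for each of 4 groups. The genotype contrast averaged the NS and DOX differences. DESeq2 1.42.0 and limma 3.58.1 served as alternatives. Gene lists were described by counts and medians and not tested. The members and lists were chosen with earlier results of these data known. Named genes were Adam17, genes with an adjusted p under 0.05 (up to 15 per direction), genes the study followed, the 4 members of each pathway list with the smallest p, and genes within 1 Mb of a called gene with an unadjusted p under 0.05. The code was tested on simulated data. No source states a shared origin of equally numbered hearts. A result that needs a withheld item is not reported here.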

Additional observations from a re-analysis of the deposited data

Results flagged for a closer look

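For each gene chosen by the naming rule or described here, the highest and the lowest of the 6 libraries of a genotype were compared with the nearest of the others, and the gap was divided by the whole range of the 6. Chance sets apart about 1 in 20 groups at the limit used (Dixon's 95% critical value), and 23 values passed it among 200 pairs of a gene and a genotype. A17fl/fl + NS replicate 1 stood above the other A17fl/fl libraries, with this ratio in parentheses, in Furin (0.76), Pacs2 (0.655), Tnfrsf1b (0.752), Tnfaip3 (0.808), Sesn2 (0.731), Fen1 (0.767), Pole2 (0.86), Pola2 (0.628), Timp1 (0.807), Tnc (0.63), Lox (0.939), Bhlhe40 (0.703), Fosl2 (0.631), Asns (0.711). It stood below them in Nrg2 (0.71), Pln (0.93). A17α-MHCKO + DOX replicate 1 was the highest of the A17α-MHCKO libraries in Cox7b (0.707), Dnajc19-ps (0.666) and the lowest in Map3k7 (0.663), Furin (0.642). A17α-MHCKO + NS replicate 1 was the highest in Gm35082 (0.726), Slco2b1 (0.749), and A17fl/fl + DOX replicate 1 the highest of its genotype in Trim66 (0.875). The 6 libraries of a genotype come from both treatments, so a treatment difference is part of each range.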

How the results depend on the processing

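The number of called genes (4) became 2 with a filter of 10 counts in every library, 18 with the likelihood ratio test and 26 with DESeq2. The number past the study limits (125) became 80 with that filter, 58 with the additive model and 53 with voom and library weights. The interaction count (0) became 11 and 19 with the likelihood ratio test and DESeq2, and Adam17 passed the threshold with both (-0.64 each). Leaving out 1 library gave 1 to 46 called genes, with 1 (Pold3) when A17fl/fl + DOX replicate 3 was dropped, 46 when A17fl/fl + NS replicate 2 was (5 of them atrial markers) and 2 without A17fl/fl + NS replicate 3 or without any 1 of the 6 A17α-MHCKO libraries. It gave 51 to 326 genes past the study limits (51, 326 and 225 without A17fl/fl + NS replicates 1, 2 and 3) and an interaction count of 0 to 81, with 81 without A17fl/fl + NS replicate 2 and 1 without A17fl/fl + DOX replicate 1. The cause was not tested. With the replicate block, 2 genes (Pold3 and P4ha3) were called and 58 passed the study limits. No pairing of hearts by number was visible, as 3 of 18 same-numbered pairs correlated over 0.1 (range -0.104 to 0.219) and 6 pairs were best with their own number. Such correlations cannot exclude a shared origin of hearts. Map3k7 and Mapk14 had differences far under their SE, and their signs say nothing of these genes. Map3k7 reversed to 0.011 with upper-quartile scaling, 0.0063 without a filter, 0.0074 with voom and ranged from -0.098 to 0.091 without 1 library. Mapk14 reversed to 0.0033 with upper-quartile scaling and ranged from -0.19 to 0.29 without 1 library. Egfr reversed to 0.0093 with voom, and Lox ranged from -2.12 to 0.20, with 0.20 without A17fl/fl + NS replicate 1. Without that library the immediate-early, macrophage and neutrophil medians moved to -0.09, 0.10 and 0.05. Fits without doubted libraries for list counts were chosen after seeing the data. Shares over all genes are given for the fit of all 12 libraries alone. List counts from the other fits therefore cannot be weighed against all genes.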

Other observations

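Some genes outside the comparisons above had uneven or steady patterns and were chosen after their values were seen. Gm47308 had 1, 1 and 1 counts in A17fl/fl + NS hearts and 1, 56 and 62 counts in A17fl/fl + DOX hearts, against 54 to 80 counts in the 6 A17α-MHCKO hearts. Usp50, a gene of the ubiquitin protease family, had 0, 191 and 0 counts in A17fl/fl + NS hearts and 149, 2 and 221 counts in A17fl/fl + DOX hearts, against 0 to 2 counts in A17α-MHCKO hearts. The A17fl/fl hearts were split within both treatments for Usp50 and within DOX for Gm47308.

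Tmed5, a protein of traffic between endoplasmic reticulum and Golgi, measured 47.3, 32.7 and 39.8 CPM in A17fl/fl + NS, 28.6, 26.5 and 27.3 CPM in A17fl/fl + DOX, 24.8, 22.2 and 20.5 CPM in A17α-MHCKO + NS and 23.4, 23.7 and 25.1 CPM in A17α-MHCKO + DOX hearts. Its log2 fold change was -0.51. Rpe, an enzyme of the pentose phosphate pathway, had -0.64, and Htt, the gene of huntingtin, had -0.42. In these 3 genes all 6 A17α-MHCKO values lay under all 6 A17fl/fl values, and none passed the adjusted threshold.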
